A study of Saccharomyces cerevisiae with 39 samples.

Results

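The rrp46-Q86I strain of budding yeast (Saccharomyces cerevisiae) was compared with its RRP46 control, 3 libraries against 3, out of 39 RNA-seq libraries in 13 groups. The libraries were taken by their labels, and every feature of the deposited count files was examined. Both strains carried the genotype MATα ura3Δ0 leu2Δ0 his3Δ1 lys2Δ0 rrp46Δ::kanMX4, so neither had a chromosomal RRP46 gene. Each carried a LEU2 CEN6 plasmid (pRS315), with wild-type RRP46 in the control and rrp46-Q86I in the mutant. The strains rrp46-L127T and rrp46-L191H, used here to test differences between alleles, have the same genotype with their own allele on the plasmid. All 4 groups were grown in triplicate in 10 mL of minimal medium without leucine at 37 °C for 5 h, and rRNA was removed from total RNA before library preparation. Both the control and the mutants thus depend on a plasmid copy, at a temperature that is itself a heat stress. The labels do not say how many transformants each triplicate came from, so the p-values measure the spread between these cultures.

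The RNA exosome degrades or trims RNA from the 3′ end, in the nucleus and in the cytoplasm. Rrp46 is one of the subunits of its core ring, on which the cap subunits sit and through which RNA is threaded to the nuclease Dis3, while the nuclease Rrp6 acts in the nuclear form. In the nucleus the exosome removes cryptic unstable transcripts (CUTs) and matures snoRNAs and rRNA, and stable unannotated transcripts (SUTs) are a second class of non-coding RNA that is less sensitive to it. The Q86I change replaces a polar glutamine of Rrp46 by isoleucine, a hydrophobic residue.

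The reference gene shows what each allele name changes. RRP46 (YGR095C) lies on the minus strand at chrVII:675671-676342 of build R64 and encodes 223 residues. Its codons at the positions named by the 3 alleles encode the residues that those names give as the original ones. The stretches below are the R64 reference, not the plasmid sequences, read 5′ to 3′ on the coding strand, with the codon changed in each allele in capitals. They are shown because the 3 alleles compared below differ from the control at these codons.

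Q86 (chrVII:676055-676117): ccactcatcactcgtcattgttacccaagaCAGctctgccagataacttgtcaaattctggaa

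L127 (chrVII:675932-675994): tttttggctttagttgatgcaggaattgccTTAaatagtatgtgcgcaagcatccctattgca

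L191 (chrVII:675740-675802): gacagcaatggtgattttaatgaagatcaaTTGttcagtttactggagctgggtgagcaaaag

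The 6 libraries held 35937895 to 47076051 counts over 8898 features, rRNA genes took 2.31% to 2.98% of them, and the scaling factors ran from 0.970 to 1.03. The first principal component held 37.1% of the variance. On it the controls lay at -9.15 to -6.30, and the mutant libraries lay at 15.03, -1.23 and 8.23 for replicates 1, 2 and 3, so replicate 2 of rrp46-Q86I was the mutant library nearest to the controls. The labelled mating type and lys2 deletion matched the data. The 4 MATα genes summed to 2364 to 2508 CPM (each count divided by its library size, on a fixed scale) in the controls and 2206 to 2692 in the mutant, against 46.5 to 52.4 and 47.8 to 50.1 for the 6 MATa genes. LYS2 did not exceed 0.0563 CPM, beside 0 to 510.9 CPM with a median of 320.8 by library totals in the 27 libraries of the other families. HIS3 and URA3 were listed at 0 in these 6 libraries. Genes not labelled as deleted, such as MTR3, were listed at 0 too, so those zeros do not test the deletions. The leu2 and rrp46 deletions were not checked, as the plasmid carries both genes. Another label calls all strains BY4741, a MATa strain by common knowledge, which the levels of the mating type genes do not match.

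The transcript of the altered gene itself was lower in rrp46-Q86I. RRP46 stood at 535, 474 and 490.3 CPM in the 3 controls and at 92.1, 74.9 and 97.0 CPM in the 3 mutant libraries. The groups were far apart, and the mutant held 0.176 of the control level (log2 fold change -2.51, SE 0.0936, 95% interval -2.72 to -2.29, adjusted p 3.98e-06). Here and below, CPM are scaled by TMM factors unless library totals are named, log2 fold changes are rrp46-Q86I over RRP46, and adjusted p-values are from edgeR's quasi-likelihood test with Benjamini-Hochberg adjustment over 7570 features. Counts on this gene do not tell the allele apart from the wild-type sequence, and less transcription and faster decay cannot be told apart in them. LEU2, the marker on the same plasmid, was at 2186, 2046 and 2287 CPM in the controls and 2460, 1861 and 2371 CPM in rrp46-Q86I. Its groups overlapped, with a log2 fold change of 0.04 (95% interval -0.18 to 0.25, adjusted p 0.903).

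Against the other groups, the lowered RRP46 was still above the level of a chromosomal copy. By library totals, rrp46-Q86I held 89.3, 75.1 and 95.8 CPM, and the 27 libraries of the other families, which have RRP46 in its chromosomal place as far as their genotypes say, held 32.9 to 56.4 CPM with a median of 43.2. The mutant mean was 2.005 times that median, and the control mean 11.7 times. The control group averaged 506 ± 22.3 CPM (SD, n = 3), rrp46-L127T 421 ± 22.7 and rrp46-L191H 945 ± 33.6, so rrp46-Q86I had the lowest RRP46 level of the family and no overlap with any group.

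SUT288, a non-coding transcript of the SUT catalogue, fell with RRP46 and by more. It was at 51.8, 49.1 and 66.0 CPM in the controls and at 3.64, 4.17 and 4.99 CPM in rrp46-Q86I (log2 fold change -3.71, SE 0.167, adjusted p 0.000668). By library totals its mean was 56.4 CPM in the RRP46 group, 39.6 in rrp46-L127T, 98.3 in rrp46-L191H and 4.21 in rrp46-Q86I, the same order as for RRP46. Over the 27 libraries of the other families it ran from 0.454 to 4.12 CPM. The rrp46-Q86I libraries, at 3.53 to 4.93 CPM, overlapped that range for SUT288, whereas for RRP46 they lay above it. The files give no position for SUT288, and whether its counts come from the plasmid insert or its edges was not tested.

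**Figure D1:**
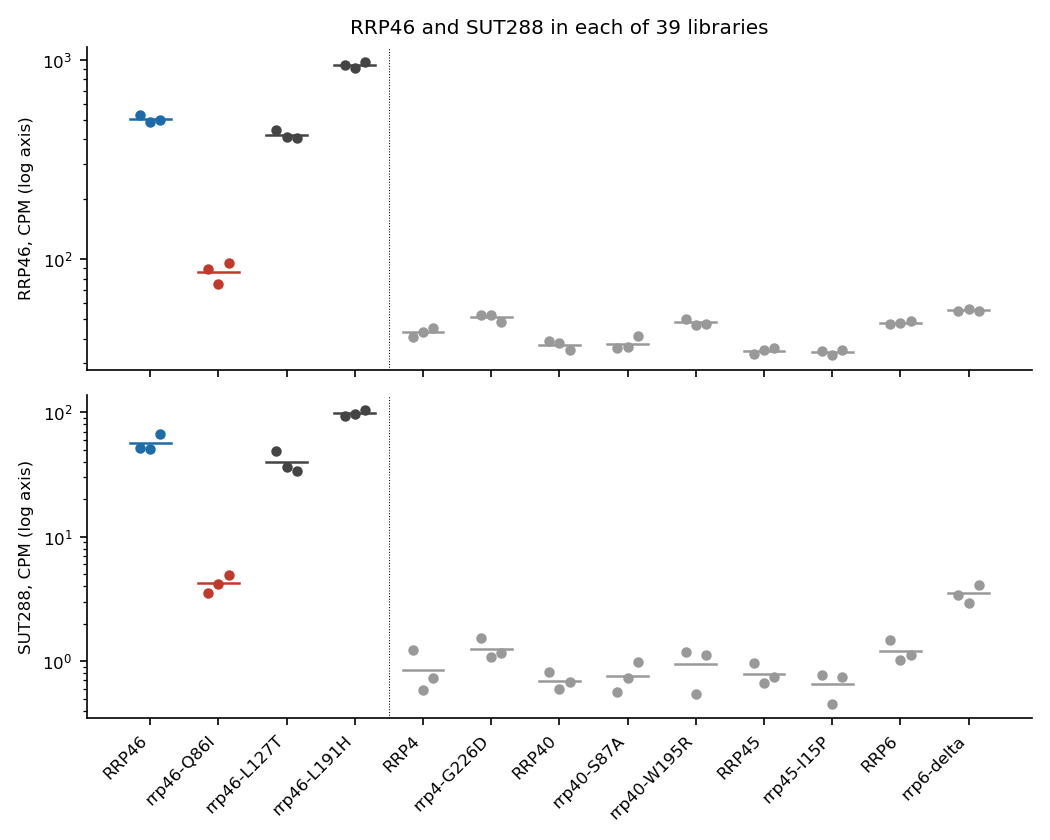
CPM by library totals (log axis) of RRP46 (top) and SUT288 (bottom) in each of the 39 libraries, in 13 groups. Points are libraries and bars are group means. The 3 rrp46-Q86I libraries (red) lie at 75.1 to 95.8 CPM for RRP46, below the other groups of the family and above the 27 libraries right of the dotted line.

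No other gene of the exosome was called. Of the 9 cap and ring genes, 8 were tested and RRP46 alone was called. RRP4, RRP40 and CSL4 (the cap) had log2 fold changes of 0.09, -0.0013 and -0.0088. The ring genes SKI6, RRP42, RRP43 and RRP45 had 0.06, 0.05, 0.10 and -0.05. The largest of these, RRP43, had a 95% interval of 0.0050 to 0.20 and an adjusted p of 0.36. MTR3, the remaining ring gene, was listed at 0 in all 39 libraries, as 703 features were, and that is no sign of its absence. Per kilobase by library totals, RRP46 dropped from 753 to 129 CPM per kb, while the 7 other tested ring and cap genes lay at 52.6 to 81.1 in the control and 55.1 to 78.6 in the mutant. Its transcript thus remained the most abundant of the tested ring and cap genes in rrp46-Q86I.

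The same held for nucleases and cofactors. DIS3, the catalytic subunit, had a log2 fold change of 0.04, RRP6 0.06 and LRP1, the partner of Rrp6, 0.05, all with adjusted p of at least 0.548. None of the 9 nuclear cofactor genes was called, over a range of -0.08 to 0.14. These are MTR4, PAP2, TRF5, AIR1 and AIR2 of the TRAMP complex, which adds short tails to RNA for the exosome, MPP6, and NRD1, NAB3 and SEN1, which end transcription of short non-coding RNAs. The 5 genes of cytoplasmic decay (SKI2, SKI3, SKI7, SKI8 and the 5′ nuclease XRN1) ran from -0.04 to 0.09, with none called. In these 3 lists no gene had an unadjusted p under 0.05 and DESeq2 called none.

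Several groups of transcripts linked to the nuclear exosome were not called higher. The counts are per feature and do not separate a mature RNA from its longer precursors, so maturation was not measured. In a list of 8 mRNAs known to be kept low by early termination or nuclear decay, 7 were tested and none was called, with a median log2 fold change of -0.05, and DESeq2 called none either. IMD2, which codes for an enzyme of guanine nucleotide synthesis and is the best known of them, had -0.16 (95% interval -0.29 to -0.03, adjusted p 0.282), and NRD1, which limits its own mRNA, had -0.08. Of 75 snoRNAs tested none was called in either direction (median 0.07), with 4 higher and 4 lower at an unadjusted p under 0.05, and DESeq2 called 3 higher and 2 lower. Among 8 stable non-coding RNAs tested, the largest values were 0.27 for SNR19 (adjusted p 0.138), the U1 snRNA, and 0.21 for RPR1 (adjusted p 0.173), the RNA of RNase P. None of the 8 was called, 3 were higher at an unadjusted p under 0.05, none was lower, and DESeq2 called 2 higher. Over all 7570 features, 506 were higher and 478 lower at an unadjusted p under 0.05. DESeq2 called 118 higher and 27 lower of the 4635 features it gave an adjusted p.

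Across all features, the response of rrp46-Q86I was small in number and size. The test called 39 of 7570 features (0.515%), 31 higher (0.41%) and 8 lower (0.106%), and at an unadjusted p under 0.05 there were 984, 506 higher and 478 lower. Scaled by library totals alone, 32 were called and the split became 15 higher and 17 lower, as the median of all features moved by -0.04 on the log2 scale. The control and mutant values did not overlap for any of the 39, as was true of 1424 of the 7570 tested. Of the 39, 3 changed at least 2-fold (RRP46, SUT288 and CUT19) and 8 at least 1.5-fold. The 30 protein-coding genes called higher rose by 0.20 to 0.60 on the log2 scale. In the text a feature is said to rise or fall where its adjusted p was under 0.05.

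**Figure D2:**
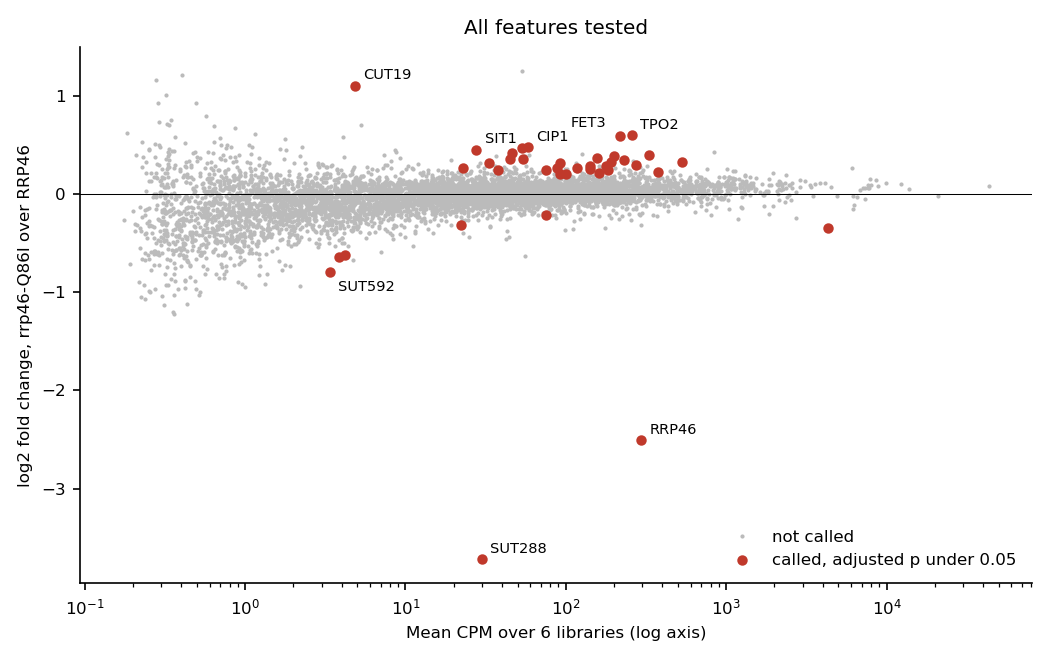
The log2 fold change of rrp46-Q86I over RRP46 against mean CPM over the 6 libraries (log axis) for the 7570 features tested. The 39 called features are red; RRP46 and SUT288 lie far below the rest, and most called genes lie between 0.20 and 0.60 at more than 10 CPM.

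Genes of iron uptake were among those that rose. When iron is scarce, the transcription factors Aft1 and Aft2 activate reductases and transporters of the plasma membrane. FET3 encodes the multicopper oxidase of high-affinity iron uptake, and FTR1 the permease that works with it. SIT1 and ENB1 encode transporters of iron bound to siderophores, the iron carriers released by microbes.

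FET3 was at 180.4, 171 and 173 CPM in the controls and 273, 264 and 253 CPM in rrp46-Q86I, a 1.51-fold rise (log2 0.59, SE 0.0467, adjusted p 8.77e-06). FTR1 was at 202, 188 and 219.7 CPM against 261, 252 and 263 CPM (log2 0.35, adjusted p 0.00735). All 3 mutant libraries were above all 3 controls for both. SIT1 was at 25.3, 23.1 and 22.0 CPM against 30.9, 34.4 and 30.6 CPM (log2 0.45, adjusted p 0.0041). ENB1 was at 85.1, 83.1 and 78.4 CPM against 104.9, 101.3 and 100.3 CPM (log2 0.31, adjusted p 0.00293). The siderophore transporters thus separated by group in the same way, and both rose by less than FET3. FTR1 lost its call without rrp46-Q86I replicate 1 or 3, with adjusted p up to 0.09, while FET3, SIT1 and ENB1 kept theirs whichever library was left out. By library totals, the 12 control libraries of the other families held 135.4 to 352.1 CPM of FET3, 138.4 to 372.8 of FTR1 and 21.1 to 44.1 of SIT1. The RRP46 and rrp46-Q86I libraries lay inside these ranges. For ENB1 those controls held 60.1 to 97.5 CPM, and rrp46-Q86I lay above them at 99.1 to 101.7. What sets the spread between families was not tested.

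Most of the iron list was not called. Of 25 iron genes listed, 23 were tested, 4 rose and none fell, beside 0.41% called higher over all features. The median over the 23 was 0.12, beside -0.0054 over all features, and 15 were above 0, as were 3589 of all 7570 tested. FRE6, a metalloreductase of the vacuole, had 0.24 (adjusted p 0.0845), and the siderophore transporters ARN1 and ARN2 had 0.12 and 0.17. The cell wall mannoproteins FIT1, FIT2 and FIT3, which hold siderophores, had -0.02, 0.14 and 0.18. FRE2 and MRS4, a surface reductase and a mitochondrial iron carrier, had -0.17 each with unadjusted p of 0.0403 and 0.0133, and LSO1 had -0.73 at under 1 CPM. FRE5 and TIS11 were listed at 0 in these libraries and not tested.

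**Figure D3:**
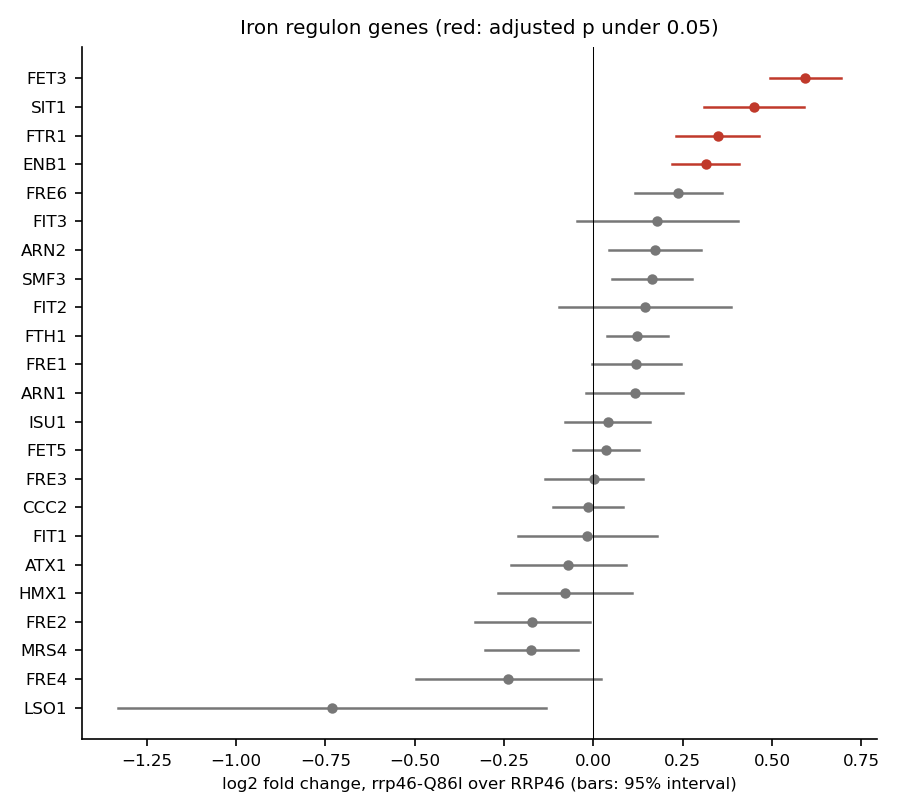
The log2 fold change of rrp46-Q86I over RRP46 for the 23 iron genes tested, with 95% intervals. FET3, SIT1, FTR1 and ENB1 (red) are the 4 with an adjusted p under 0.05, at 0.31 to 0.59; the 19 in grey run from -0.73 to 0.24.

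The promoters of these 4 genes hold the core letters that Aft1 binds. TGCACCC, on either strand within 500 bases before the start codon, was found for 140 of 6019 protein-coding genes (2.33%), for 22 of the 25 iron genes (88.0%) and for 4 of the 30 protein-coding genes that rose (13.3%). Those 4 were FET3, FTR1, SIT1 and ENB1. The windows below are from R64, on the strand of the gene, with TGCACCC or its complement GGGTGCA in capitals, and are shown because these genes moved together. A match of letters is a description and not a site, and the other iron genes with a match either did not pass the test or were not tested.

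FET3, 251 bases before the start (chrXIII:388551-388597, plus strand): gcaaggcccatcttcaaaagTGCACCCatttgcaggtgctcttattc

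FTR1, 365 bases before the start (chrV:462079-462125, minus strand): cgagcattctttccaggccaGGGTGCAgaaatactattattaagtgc

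FTR1, 175 bases before the start (chrV:461889-461935, minus strand): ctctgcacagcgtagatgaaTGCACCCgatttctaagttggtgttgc

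SIT1, 188 bases before the start (chrV:27449-27495, plus strand): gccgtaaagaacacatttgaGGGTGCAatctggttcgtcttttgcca

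ENB1, 193 bases before the start (chrXV:21478-21524, minus strand): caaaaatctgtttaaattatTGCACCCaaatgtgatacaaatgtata

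ENB1, 137 bases before the start (chrXV:21422-21468, minus strand): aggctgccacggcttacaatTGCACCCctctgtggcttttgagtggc

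Some cell wall genes rose by small amounts. PST1, a wall protein induced by wall damage, was at 134, 145 and 129 CPM in the controls and 169, 176 and 180.1 CPM in the mutant (log2 0.36, SE 0.0499, adjusted p 0.00293). CRH1, which links chitin to glucan, was at 244, 258 and 233 CPM against 304, 288 and 308 CPM (log2 0.29, adjusted p 0.0155). SLT2, the kinase of the cell wall integrity pathway, was at 147, 155 and 144 CPM against 171, 170.3 and 173 CPM (log2 0.21, adjusted p 0.0493). The groups did not overlap for any of them, but the rises of CRH1 and SLT2 were close to the spread that 1 library can tip. CRH1 was not called without rrp46-Q86I replicate 1 or 3, and SLT2 was called in only 1 of the 6 fits that leave out a library.

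Further wall and surface genes rose that, like PST1, are not on the list of 21 wall genes. EXG1, the main exo-glucanase of the wall, rose by 0.33 and DSE4, a glucanase that helps daughter cells separate, by 0.32 on the log2 scale. SVS1, a wall protein linked to vanadate resistance, rose by 0.26, MKC7, a membrane aspartyl protease of the yapsin family, by 0.20, and RCR1, a membrane protein that affects chitin deposition, by 0.24. DSE4 was called in all 6 fits that leave out a library, EXG1 in 5, SVS1 in 4, RCR1 in 2 and MKC7 in 1. With library totals SVS1, RCR1 and MKC7 were not called. In the list of 21 wall genes, 20 were tested, of which CRH1 and SLT2 rose, none fell, 18 were above 0 and the median was 0.13, beside 0.41% called higher, 3589 of 7570 above 0 and a median of -0.0054 over all features. Of these 20, 10 were higher at an unadjusted p under 0.05, as were 506 of 7570 features, among the 10 YPS3 (0.21, adjusted p 0.0691) and GAS1 (0.18, adjusted p 0.176). Most of the 20 are abundant, and protein-coding genes of at least 100 CPM had a median of 0.03, with 543 of 1647 below 0. Such a lean was not particular to wall genes, as 21 of 23 ergosterol and 68 of 81 ribosome assembly genes were above 0. Respiration and general stress genes leaned the other way, with 10 of 30 and 4 of 17 above 0. None of the 20 was called without rrp46-Q86I replicate 1 or without replicate 3.

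Membrane exporters and weak acid response genes also rose. TPO2, a polyamine exporter that the factor Haa1 activates under weak acids, was at 185, 194 and 236 CPM in the controls and 299.8, 305 and 329 CPM in rrp46-Q86I. This 1.52-fold rise (log2 0.60, SE 0.0842, adjusted p 0.0155) was the largest of a protein-coding gene. SPI1, a wall protein of the same response, rose by 0.28 (adjusted p 0.0474), and PHM8, a nucleotide phosphatase that is also on the phosphate list, by 0.36 (adjusted p 0.00735). With these, 3 of the 8 tested genes of the Haa1 list rose and none fell, with a median of 0.21 beside 0.41% called higher and a median of -0.0054 over all features, and the remaining 5 ran from -0.06 for GRE1 to 0.28 for YRO2 (adjusted p 0.129). The count fell to 0 without rrp46-Q86I replicate 1 and without replicate 3, and to 1 with library totals.

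Single members stood out in related lists. AQR1, an exporter of short-chain acids and drugs, rose by 0.47 (40.0, 45.6 and 47.4 against 61.3, 55.1 and 68.3 CPM, adjusted p 0.0493) and was the only one of 11 tested drug and acid exporters to pass, the others lying between -0.20 and 0.12. Among the 11 polyamine genes only TPO2 rose, and TPO1, the next, had 0.25 (adjusted p 0.053). On the phosphate list PHM8 alone of 13 tested rose, and the others ran from -0.44 (SPL2) to 0.13 (PHO12). AQR1 was called in 1 of the 6 fits that leave out a library, and TPO2 in 2.

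Among the called genes were 4 with known roles around the G1 to S step of the cell cycle. CIP1, an inhibitor of the cyclin-dependent kinase, was at 49.5, 47.1 and 50.0 CPM in the controls and 66.2, 65.7 and 71.5 CPM in the mutant (log2 0.47, SE 0.0476, adjusted p 0.000157). CLN2, a G1 cyclin, rose by 0.26 and RNR1, the large subunit of ribonucleotide reductase, by 0.26 (both adjusted p 0.0155). HO, the endonuclease of mating type switching, which is expressed in late G1, rose by 0.32 (adjusted p 0.0347). CIP1 remained called whichever library was left out. CLN2 and RNR1 did not without rrp46-Q86I replicate 1 or 3, and HO did not without replicate 1, 2 or 3. In a joint fit of the 12 libraries of the RRP46 family, CIP1 (adjusted p 0.156), CLN2 and RNR1 were not called. With library totals CLN2 and HO were not called, nor was HO at a mean CPM of at least 10. No cell cycle list was set up, so these are named one by one from the called genes.

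The MluI cell cycle box ACGCGT, which the MBF factor binds in late G1 genes, reads the same on both strands. It was present within 500 bases before the start of 325 of 6019 genes (5.4%) and of 6 of the 30 protein-coding genes that rose, which were CIP1, RNR1, CRH1, RCR1, FCY2 and MKC7. RNR1 held it 4 times. CGCGAAA, bound by the factor SBF, was found for 349 genes (5.8%) and for 1 of the 30, HO. No other letters were searched for SBF, so a promoter without CGCGAAA may still hold another form of its site. These shares are descriptions of letters in 2 lists of different size.

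The remaining genes that rose had varied roles. INA1, a membrane protein that is little studied, was at 289, 293 and 274 CPM against 381, 356 and 387 CPM (log2 0.39, adjusted p 0.00127). STP4, a zinc finger protein, was at 161, 174 and 186 CPM against 221, 226.2 and 232 CPM (log2 0.38, adjusted p 0.00293). GPD2 and GPP2, 2 enzymes of glycerol synthesis, rose by 0.29 and 0.24. PLB3, a phospholipase B, rose by 0.25, FCY2, the purine and cytosine permease, by 0.22, and ECM3 by 0.20. The zinc finger genes COM2 and CMR3 rose by 0.41 and 0.27 and the uncharacterised YOR385W by 0.35. INA1 and STP4 stayed called whichever library was left out, and these other 8 genes did not.

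Among features that fell, RRP46 and SUT288 were alone beyond 2-fold. SUT592 fell by 0.79 (5.06, 3.94 and 3.89 against 2.04, 2.91 and 2.45 CPM) and SUT161 by 0.64 (5.16, 4.69 and 4.16 against 2.69, 3.12 and 3.15 CPM). YDR433W, known here by its identifier only, fell by 0.62 at 3.06 to 5.50 CPM, and YER121W, an uncharacterised gene, by 0.32. MRK1, a kinase of the glycogen synthase kinase 3 family, fell by 0.22. YLR154W-E, again an identifier only, was abundant, at 5079, 4580 and 4857 CPM against 3523, 3866 and 4020 CPM (log2 -0.35, adjusted p 0.0204). Apart from RRP46 and SUT288, each of the features that fell lost its call in at least 2 fits that leave out a library.

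**Figure D4:**
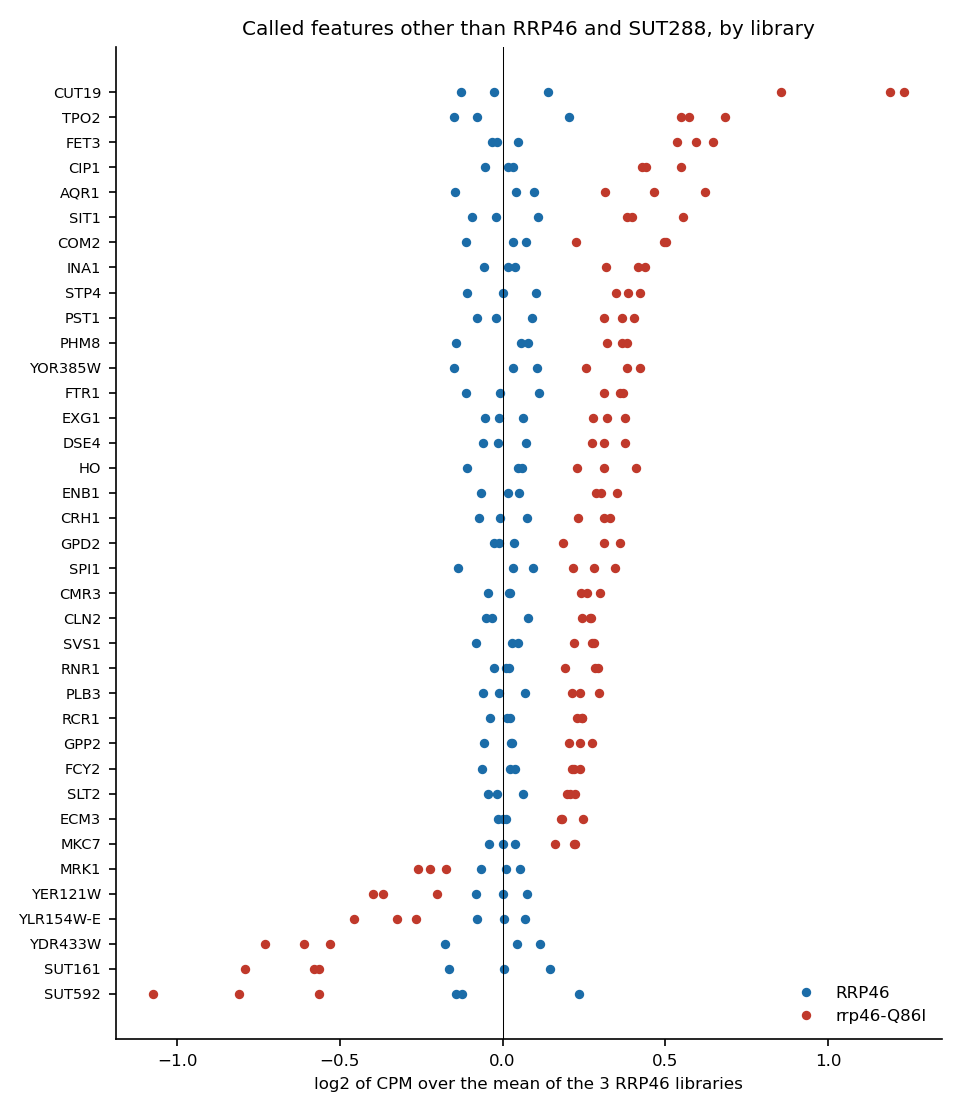
For 37 called features (all but RRP46 and SUT288), the log2 of each library's CPM over the mean of the 3 RRP46 libraries. Blue points are the controls and red points rrp46-Q86I; the groups do not overlap for any feature, and most red points lie within 0.20 to 0.60 of the control mean.

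Just outside the threshold lay genes with values like those inside it. AQR1, SLT2 and MKC7, the last inside, had an adjusted p of 0.0493. ERG25 of ergosterol synthesis (0.24), the kinase TOS3 (0.27) and YLR179C (0.26) were the first outside, with 0.0526. HSP30, a stress protein of the plasma membrane, had the highest estimate of all features, 1.25, from 26.4, 27.6 and 41.2 CPM in the controls to 64.3, 79.3 and 83.1 CPM in the mutant. The spread among its libraries left the adjusted p at 0.135, and HSP30 is named here after its value was seen. The other 20 heat shock chaperone genes ran from -0.08 to 0.16, with none called. Over all 21 genes 5 were higher at an unadjusted p under 0.05, beside 506 of 7570 features. DESeq2 called 2 higher, beside 118 of 4635 over all features.

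Large gene groups of growth and metabolism were not called in either direction. None of 138 ribosomal protein genes, 81 ribosome assembly genes, 39 amino acid genes, 23 ergosterol genes, 20 glycolysis genes, 30 respiration genes or 8 histone genes tested passed. At an unadjusted p under 0.05 these lists, ribosomal proteins aside, had 0 to 10 members higher and 0 to 4 lower, and DESeq2 called 0 to 3 higher in each and none lower. Ribosomal protein genes had a median of 0.09, with 120 of 138 above 0, beside 3589 of 7570 over all features. Over all 138, 43 were higher and 3 lower at an unadjusted p under 0.05, beside 506 and 478 of the 7570. DESeq2 called 12 higher of the 131 it gave an adjusted p, beside 118 of 4635 over all features. Amino acid genes had a median of 0.08, ergosterol genes 0.07, glycolysis genes 0.07, ribosome assembly genes 0.05 and respiration genes -0.04, beside -0.0054 over all features. The zinc list (8 tested), the copper list (7), the hexose transporters (11), the nucleotide list (22) and the general stress list (17) likewise had none called, with medians from -0.06 to 0.03, 0 to 4 members higher and 0 to 3 lower at an unadjusted p under 0.05, and 0 or 1 called by DESeq2.

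Cryptic transcripts as a class were not higher in rrp46-Q86I. Of 597 CUTs tested, 1 rose and none fell, and of 673 SUTs, 3 fell and none rose, against 0.41% higher and 0.106% lower over all features. The one CUT was CUT19, at 3.03, 3.40 and 2.83 CPM in the controls and 5.59, 7.05 and 7.27 CPM in the mutant (log2 1.10, SE 0.131, adjusted p 0.000812). The medians lay below 0, at -0.15 for CUTs and -0.12 for SUTs, with 149 of 597 and 167 of 673 above 0. At an unadjusted p under 0.05, 58 CUTs were lower and 5 higher, and 82 SUTs were lower and 6 higher. CUTs and SUTs can overlap or lie antisense to genes, and the strand setting of the counting is not given in the sources used here.

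The lower CUT and SUT levels differed between the mutant libraries and were shared by other weakly expressed features. Relative to the control mean, the median CUT stood at -0.25, -0.01 and -0.16 on the log2 scale in rrp46-Q86I replicates 1, 2 and 3, and between -0.06 and 0.04 in the controls. The median SUT stood at -0.18, -0.02 and -0.12. Protein-coding genes under 10 CPM followed, at -0.11, -0.0015 and -0.08, so replicates 1 and 3 were low for all 3 classes and replicate 2 lay among the controls. Protein-coding genes under 1 CPM had a median log2 fold change of -0.16 (161 genes), and those above 100 CPM 0.03 (1647 genes). CUTs and SUTs under 1 CPM had -0.26 and -0.22. At 1 to 3 CPM, CUTs, SUTs and protein-coding genes had -0.15, -0.13 and -0.07. At 3 to 10 CPM they had -0.09, -0.11 and -0.04, and at 10 to 30 CPM -0.04, -0.09 and -0.01. Up to 30 CPM the medians of CUTs and SUTs thus lay below those of protein-coding genes of like level. Whether abundance or the class sets these values was not tested.

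Direct comparison with the other alleles of the gene showed where rrp46-Q86I differed from them. These fits share the rrp46-Q86I libraries with the comparison above, so they are no independent evidence on it. Against rrp46-L127T, which changes a leucine of the same protein to threonine, 45 of 7447 features differed (0.604%), 31 higher and 14 lower in rrp46-Q86I. Against rrp46-L191H, with a histidine for another leucine, 4839 of 7518 differed (64.4%), 2393 higher and 2446 lower, or 1102 higher and 4048 lower by library totals.

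Of the 39 features called against RRP46, 7 also differed from rrp46-L127T, all in the same direction, and 32 did not pass. RRP46 was lower in rrp46-Q86I by 2.26 and SUT288 by 3.22 on the log2 scale, and CUT19 was higher by 1.02. The other 4 were wall genes and the kinase of their pathway: PST1 was higher by 0.32 (adjusted p 0.033), CRH1 by 0.31 (0.0358), SVS1 by 0.34 (0.0161) and SLT2 by 0.25 (0.0435). By library totals PST1 averaged 140 ± 12.8 CPM in rrp46-L127T and CRH1 242 ± 19.7 (SD, n = 3). RRP46 and SUT288 differed in all 6 fits that leave out a library, and CUT19 in 5, while each of the 4 wall genes differed in 2. With library totals PST1, CRH1 and SLT2 missed the threshold (adjusted p 0.0638, 0.0577 and 0.0769). The count of 45 itself ran from 5 without rrp46-Q86I replicate 3 to 585 without rrp46-L127T replicate 1.

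The iron genes were not shown to differ between these 2 alleles. The log2 difference, rrp46-Q86I minus rrp46-L127T, was -0.05 for FET3 (95% interval -0.20 to 0.10), -0.05 for SIT1 (-0.19 to 0.10), -0.03 for ENB1 (-0.16 to 0.09) and -0.29 for FTR1 (-0.46 to -0.12, adjusted p 0.12). By library totals FET3 was at 254, 254 and 309 CPM in rrp46-L127T, beside 250.1 to 264.9 in rrp46-Q86I and 175 to 179 in the control. TPO2 had a difference of -0.26 (adjusted p 0.103) and CIP1 one of -0.37 (adjusted p 0.284), so neither was called.

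Against rrp46-L191H the same genes were set apart. FET3 was higher in rrp46-Q86I by 1.62 on the log2 scale, FTR1 by 1.26, ENB1 by 0.75 and SIT1 by 0.21. FET3 averaged 97.7 ± 4.2 CPM in rrp46-L191H by library totals, below the control, and FTR1 123 ± 1.66. Of the 39 features, 21 differed from rrp46-L191H in the direction in which they differed from RRP46, 13 in the opposite direction, and 5 did not pass. SIT1 overlapped between these alleles by library totals, at 29.97, 32.99 and 31.9 CPM in rrp46-L191H and 29.98 to 34.5 in rrp46-Q86I, and its difference became -0.0033. That scaling moved the median of all features in this comparison to -0.22, and the split of the 39 to 15 in the same direction, 15 opposite and 9 not called. PST1 and SVS1 were higher in rrp46-Q86I by 1.01 and 0.87, while CRH1 (0.08) and SLT2 (-0.04) were not called, and were lower in rrp46-Q86I by library totals (-0.13 and -0.25).

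**Figure D5:**
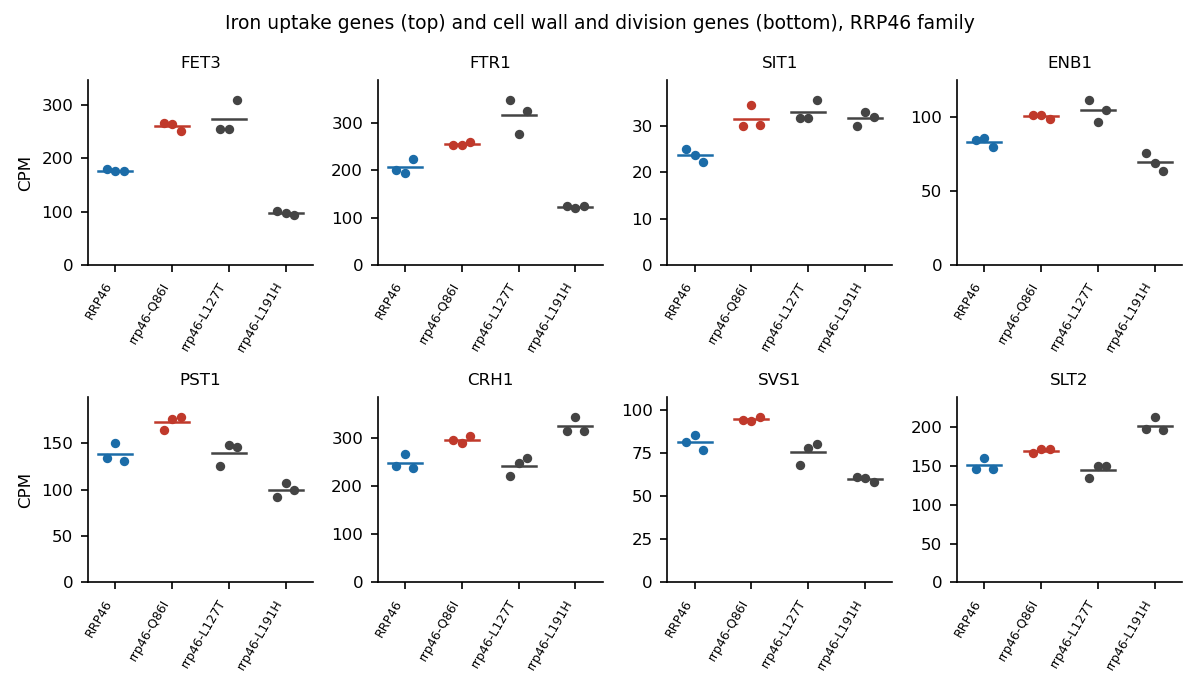
CPM by library totals of 8 genes in the 12 libraries of the RRP46 family, with each axis starting at 0. Points are libraries and bars are group means. FET3, FTR1, SIT1 and ENB1 (top) have group means in rrp46-L127T at or above those in rrp46-Q86I; PST1, CRH1, SVS1 and SLT2 (bottom) are higher in rrp46-Q86I than in RRP46 and rrp46-L127T.

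The authors' deposited table for the same comparison calls 117 of 8058 features at an adjusted p under 0.05, 91 higher and 26 lower. Of the 39 features called here, 33 are among them, which is 84.6% of the 39 and 28.2% of the 117. The authors' deposited table gives RRP46 a log2 fold change of -2.49, SUT288 -3.68 and FET3 0.58. The 6 that it does not call are ECM3, COM2, CMR3, MRK1, YER121W and AQR1. Of genes that missed the threshold here, the authors' deposited table calls FRE6 (0.21, adjusted p 0.0136), YPS3 (0.19) and GAS1 (0.16).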

How the data were processed

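Each of the 39 deposited files holds whole-number counts, not normalized, for 8898 features. Duplicates were marked, per the file headers. The submitters' processing notes name STAR, featureCounts 1.22.2, StringTie 2.1.7, DESeq2 1.38.1 and build R64, with no role or order. The strand setting, the annotation and the handling of multiply mapped reads are not given in the sources used here, so overlapping features and close paralogs are uncertain. The authors' deposited comparison table holds log2 fold changes with standard errors, p-values and adjusted p-values, and a base mean signal. It was used for description only.

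Counts were tested in R 4.3.3 with edgeR 4.0.16: the default expression filter, TMM factors, a robust quasi-likelihood test, two-sided, no covariate, and Benjamini-Hochberg adjustment at 0.05. The fit used the 6 libraries of each comparison. DESeq2 1.42.0 was an alternative. The procedure was also run on simulated counts with known changes. That simulation held no shift shared by many features of 1 library, and no result here rests on it. Log2 levels for library comparisons used a prior count of 2. Feature names came from RefSeq (R64) for 6162 features. Promoters and codons were read from the R64 genome in Python 3.11.15. All named genes were RRP46, every called feature, the exosome and cofactor genes, and ranges for other lists. The comparison and gene lists were chosen with earlier results of these data known. Same-numbered libraries of the groups did not deviate together (correlations -0.05, 0.05 and 0.05), so the main fit has no replicate block.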

Additional observations from a re-analysis of the deposited data

How the results depend on the processing

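RRP46 was called under all 12 alternatives run for it, at -2.58 to -2.40 on the log2 scale, and none of the 39 features changed direction under any alternative. The count of 39 became 145 with DESeq2, 25 with a mean CPM of at least 10, 19 in a joint fit of the 12 libraries of the RRP46 family and 8 when the change also had to reach 1.5-fold. With the replicate block it was 124, which held all 39, although the numbers are not shown to pair the libraries, since control replicate 1 correlated best with mutant replicate 2. Leaving out each library in turn gave 11 to 73: 60 and 73 without RRP46 replicate 1 and 3, and 13 and 11 without rrp46-Q86I replicate 1 and 3. FET3, SUT288, PST1, STP4, ENB1 and SIT1 were, like RRP46, called under all 12 alternatives, and CUT19 under all 10 that gave it a value. CIP1, INA1 and DSE4 with these 8 were called whichever library was left out, and 28 features were not called in at least 1 such fit.

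The count against rrp46-L127T (45) was 28 with library totals, 158 with DESeq2, 21 at a mean CPM of 10 or more, and 5 to 585 when each library was left out, with 9, 13 and 5 without rrp46-Q86I replicate 1, 2 and 3 and 585 and 18 without rrp46-L127T replicate 1 and 2. Against rrp46-L191H the count stayed between 3656 and 5150, and the share higher in rrp46-Q86I went from 49.5% to 21.4% with library totals. Called iron genes numbered 3 to 5, Haa1 genes 0 to 4 and wall genes 0 to 7 over the alternatives. The CUT median was -0.08 without rrp46-Q86I replicate 1, -0.22 without replicate 2 and -0.04 at a mean CPM of at least 10. The SUT median was -0.08 without rrp46-Q86I replicate 1, and the ribosomal protein median 0.05 with library totals. The cause of these shifts was not tested. DESeq2 gave no adjusted p to 2935 features of low count, most CUTs among them.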
